A study of Mus musculus with 12 samples.

Results

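The C/EBP and PPAR adipogenic regulators are 9 of the 22180 genes measured in this series: the CCAAT/enhancer binding proteins Cebpa, Cebpb, Cebpd and Cebpg, the peroxisome proliferator-activated receptors Pparg, Ppara and Ppard, and the retinoid X receptors Rxra and Rxrg. They were taken by symbol from the probe sets annotated to exactly 1 gene, and each of the 9 had 1 such probe set. A further probe set shared by Ppard and another gene was not used here. RNA from C57BL/6 mice was hybridised to 12 Affymetrix arrays, 3 biological replicates in each of 4 groups. The groups were adipose progenitor preparations (AP) and unfractionated adipose tissue (AT). Both were taken from subcutaneous fat of the groin (inguinal, SAT) and from visceral fat around the gonads (perigonadal, VAT). All were processed fresh. AP came from the stromal vascular fraction of several mice, the cells other than adipocytes that enzymes release from fat, after depletion on antibody-coated beads of blood cells (lineage+) and endothelial cells (CD31+). The labels give no age, sex, genotype or treatment, and do not tell how many animals stand behind a replicate. The p-values therefore cover only the spread between these samples. Values are log2 RMA intensities, a log2 scale of brightness per probe set on which 1 unit is a doubling. The level of one probe set is not comparable with that of another, so each gene is compared only with itself.

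The labels were checked against marker genes. In AP, 8 of 10 progenitor markers were higher than in AT and 1 was lower over both depots, with Pdgfrb at 3.16 and Pdgfra at 2.31 on the log2 scale. All 11 adipocyte markers, all 8 macrophage and monocyte markers and 7 of 8 endothelial markers were lower, with the CD31 gene Pecam1 at -2.90. Array medians ran from 4.49 to 4.67, and arrays of the same group correlated across genes at 0.9869 to 0.9936. A value of 4.09, the 40th percentile of all probe set values, served as the mark of a near-background level, and every group mean of the 9 genes lay above it.

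C/EBP proteins are leucine zipper transcription factors that bind DNA as dimers, and PPARs are fatty acid-sensing nuclear receptors that bind DNA together with an RXR partner. In the textbook sequence of fat cell formation, hormonal signals first induce C/EBP-beta and C/EBP-delta. These then activate Cebpa and Pparg, whose products sustain each other and switch on the genes of the mature adipocyte. PPAR-alpha and PPAR-delta drive fatty acid oxidation, and PPAR-alpha is abundant in brown fat. C/EBP-gamma lacks a classical activation domain and pairs with other leucine zipper proteins.

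Promoter sequences give the DNA just before the starts of these genes. RefSeq windows (GRCm38.p6) matched 8 of the 9 genes with 12 windows in all. Cebpd had no window and was not searched. The 250 bases before each start were searched on both strands for 7 short motifs. The genes printed are Cebpa and Pparg, lower in AP, and Cebpb, higher in AP. The windows are chr7:35119043-35119292 (plus strand) for Cebpa, chr2:167688665-167688914 (plus strand) for Cebpb and chr6:115421816-115422065 (plus strand) for the most downstream of 3 Pparg starts. Each is written 5′ to 3′ and ends at the base before the start. Capitals mark the C/EBP site (TTGCNNAA), the core of the cyclic AMP response element (TGACG) and the TATA box (TATAAA), on either strand.
Cebpa: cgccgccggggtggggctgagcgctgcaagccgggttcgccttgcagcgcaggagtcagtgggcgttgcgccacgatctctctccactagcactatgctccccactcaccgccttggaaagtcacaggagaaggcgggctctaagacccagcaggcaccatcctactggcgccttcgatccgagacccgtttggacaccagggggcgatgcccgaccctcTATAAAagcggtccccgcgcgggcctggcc
Cebpb: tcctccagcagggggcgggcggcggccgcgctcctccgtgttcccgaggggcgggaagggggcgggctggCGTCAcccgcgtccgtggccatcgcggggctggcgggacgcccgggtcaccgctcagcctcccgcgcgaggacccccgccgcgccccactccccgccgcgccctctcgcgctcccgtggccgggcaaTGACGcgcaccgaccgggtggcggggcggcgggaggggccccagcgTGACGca
Pparg, downstream start: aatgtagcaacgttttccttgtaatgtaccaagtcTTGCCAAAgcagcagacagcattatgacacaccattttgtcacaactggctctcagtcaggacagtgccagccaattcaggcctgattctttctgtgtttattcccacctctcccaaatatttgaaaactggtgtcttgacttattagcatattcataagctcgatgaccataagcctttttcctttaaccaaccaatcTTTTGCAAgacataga
The downstream Pparg window held 2 C/EBP sites, 215 and 16 bases before the start. A C/EBP site occurs in 9.56% of all 32851 windows of this length, and the only other match among the 12 was in the downstream of 2 Rxrg windows. The Cebpb window held 3 cores of the cyclic AMP response element, 180, 53 and 7 bases before the start, a motif present in 17.8% of all windows, and Ppara had 1. The Cebpa window held a TATA box 30 bases before the start (12.4% of windows), and the middle Pparg window held another. The PPAR element, 2 copies of AGGTCA with 1 base between, present in 0.0335% of all windows, was found in no member window. Over the other motifs, GC boxes (GGGCGG, 32.7% of windows) were in the windows of Cebpb, Ppara, Ppard, Rxra and Pparg, CCAAT boxes (33.8%) in those of Cebpg, Pparg, Ppard and Rxrg, and the E-box (CACGTG, 6.02%) in none. CCAAT and the C/EBP site can stand side by side but share no match here, and a match describes letters, not binding. Cebpa and Cebpg are neighbours on chromosome 7, with 1 predicted protein-coding gene between them.

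The comparison of AP with AT asks how far the regulators differ between the progenitor preparation and the tissue it came from. The early factors Cebpb and Cebpd were higher in AP, and the late factors Cebpa and Pparg were lower, in both depots. Cebpg and Rxrg were lower to a smaller extent. Ppara was called in SAT only, and Ppard and Rxra in VAT only. Whether such differences vary between depots is tested by the interaction below, which only Ppard passed in the main fit. Tissue RNA is a mixture, so fewer cells of a type and less RNA per cell cannot be told apart in any of these differences. Enzymatic dissociation was applied to AP and not to AT, and its effect and that of cell type likewise cannot be told apart.

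**Figure D1:**
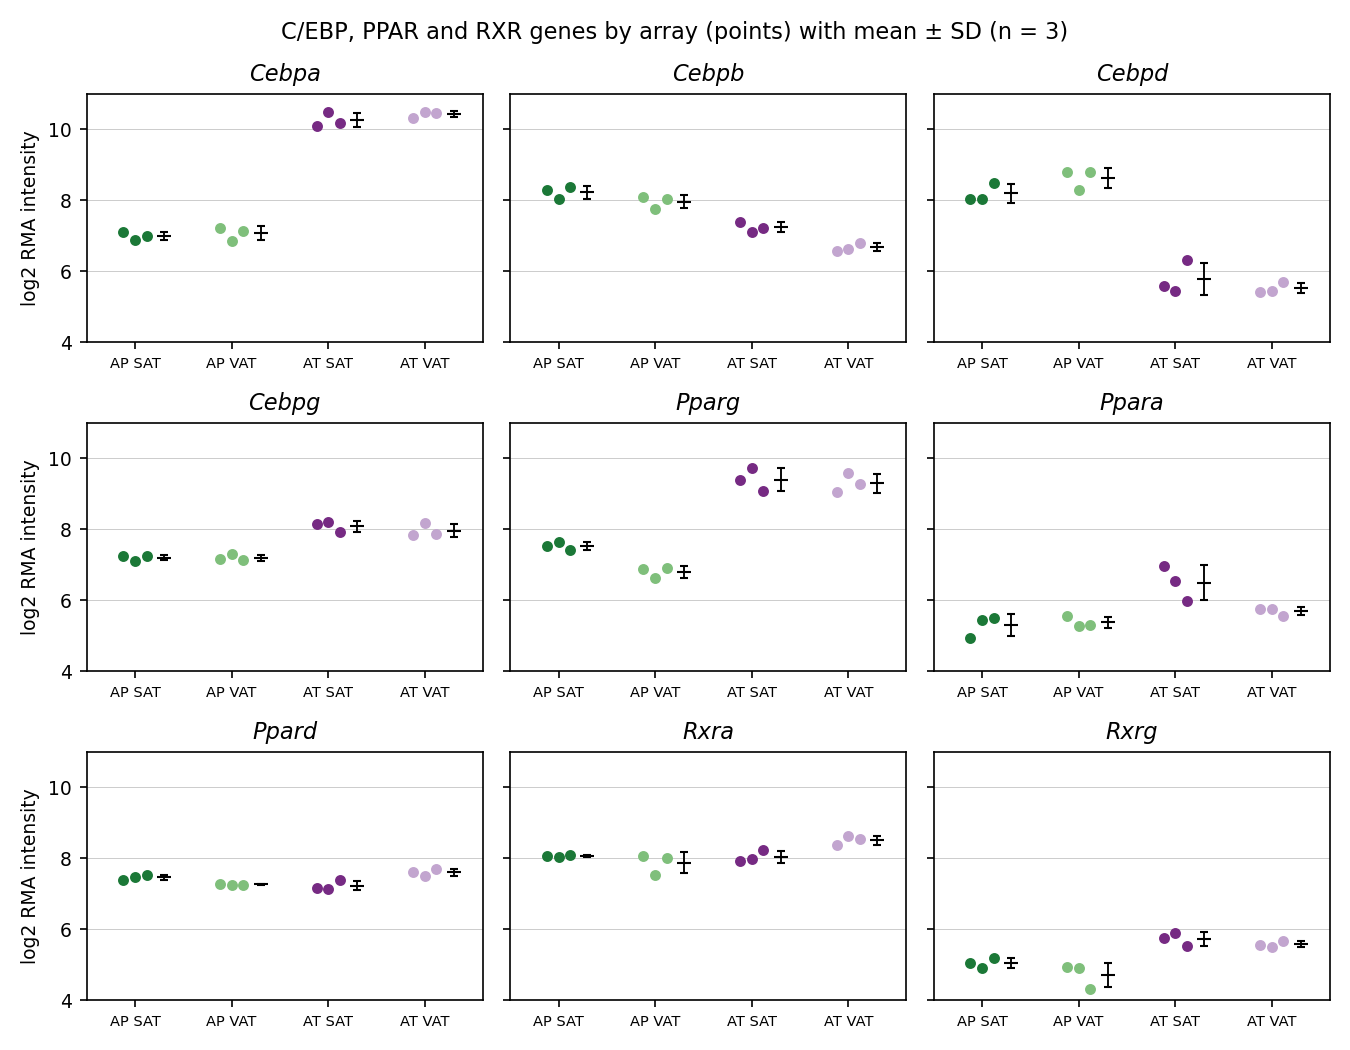
Each panel shows 1 gene: points are the log2 RMA intensities of the 3 arrays in each group, and the bar beside them is the mean ± SD. The AP and AT points of Cebpa, Cebpb, Cebpd, Cebpg, Pparg and Rxrg lie apart in both depots, while those of Rxra overlap in SAT.

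Among the C/EBP genes, Cebpa (Entrez Gene 12606), the factor that maintains the adipocyte programme, differed most. In AP from SAT its arrays read 7.10, 6.88 and 6.98, and in AP from VAT 7.22, 6.84 and 7.13. In AT from SAT they read 10.09, 10.49 and 10.18, and in AT from VAT 10.32, 10.47 and 10.46. The 6 AP arrays were all low and the 6 AT arrays all high, with no overlap, and the depots overlapped within each preparation. AP was lower by a log2 difference of -3.27 (SE 0.13) in SAT and -3.35 (SE 0.13) in VAT, or 9.62-fold and 10.2-fold (adjusted p = 4.15e-11 and 3.01e-11). Only 0.451% of all genes had a larger absolute difference over both depots.

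Cebpd (Entrez Gene 12609), an early factor induced by glucocorticoid and inflammatory signals, ran the other way. Its values were 8.04, 8.04 and 8.49 in AP from SAT and 8.78, 8.29 and 8.79 in AP from VAT. In AT they were 5.59, 5.44 and 6.30 in SAT and 5.42, 5.45 and 5.69 in VAT. All AP arrays were above all AT arrays, and replicate 3 of AT from SAT was the highest AT array. AP was higher by 2.41 (SE 0.20) in SAT and 3.10 (SE 0.20) in VAT, which is 5.33-fold and 8.57-fold (adjusted p = 1.93e-07 and 1.33e-08).

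Cebpb (Entrez Gene 12608), the other early factor, differed in the same direction by less. It read 8.28, 8.02 and 8.36 in AP from SAT and 8.10, 7.75 and 8.02 in AP from VAT. AT read 7.39, 7.11 and 7.20 in SAT and 6.58, 6.63 and 6.80 in VAT. The groups ranked AP from SAT, AP from VAT, AT from SAT and AT from VAT, and only the first pair of neighbours overlapped. AP was higher by 0.99 (SE 0.13) in SAT and 1.29 (SE 0.13) in VAT (adjusted p = 1.56e-05 and 1.11e-06).

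Cebpg (Entrez Gene 12611), the dimer partner, was lower in AP. Its arrays lay between 7.11 and 7.29 in AP and between 7.84 and 8.20 in AT, without overlap. The difference was -0.89 (SE 0.12) in SAT and -0.76 (SE 0.12) in VAT (adjusted p = 2.01e-05 and 9.87e-05). This fall was not called on a housekeeping scale, with arrays aligned on genes that most cells use, with -0.15 in SAT and 0.0083 in VAT.

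Of the receptors, Pparg (Entrez Gene 19016), the master regulator of fat cell formation, was lower in AP. In AP from SAT it read 7.53, 7.65 and 7.42, and in AP from VAT 6.87, 6.61 and 6.91. In AT it read 9.39, 9.72 and 9.06 in SAT and 9.03, 9.57 and 9.27 in VAT. AP lay below AT on every array, and within AP the VAT arrays lay below the SAT arrays. The difference was -1.86 (SE 0.16) in SAT, 3.62-fold, and -2.49 (SE 0.16) in VAT, 5.63-fold (adjusted p = 3.26e-07 and 1.42e-08).

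Ppara (Entrez Gene 19013), the oxidative receptor, was highest in AT from SAT. That group read 6.96, 6.54 and 5.97, a wide spread (SD 0.50), against 5.76, 5.74 and 5.56 in AT from VAT. AP read 4.94, 5.43 and 5.51 in SAT and 5.54, 5.28 and 5.29 in VAT. Every array of AT from SAT stood above all other arrays, and replicate 1 stood highest. AP was lower in SAT by -1.20 (SE 0.20, adjusted p = 0.000221). In VAT the difference was -0.32 (SE 0.20, 95% interval -0.75 to 0.12), which did not pass (adjusted p = 0.264). On the housekeeping scale it was 0.455 (adjusted p = 0.0389), against a median of 0.805 over all genes.

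Brown fat markers moved with Ppara in AT from SAT. Over 12 brown and beige markers, the mean log2 level in that group was 7.516 on replicate 1, 6.616 on replicate 2 and 5.721 on replicate 3. The uncoupling protein Ucp1, which makes heat in brown fat, read 10.76, 8.62 and 4.55 on the same arrays. All other arrays had list means between 4.54 and 5.172, so the 3 arrays of AT from SAT were the highest for the list as they were for Ppara, and in the same order. Their part in the Ppara difference was not tested.

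**Figure D2:**
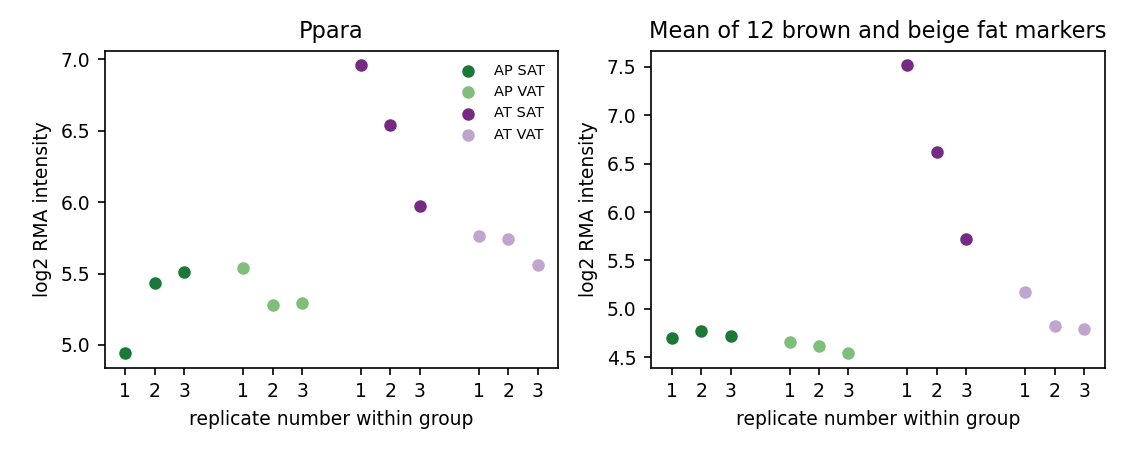
Left, the log2 RMA intensity of Ppara on each of the 12 arrays. Right, the mean log2 RMA intensity of 12 brown and beige fat markers on the same arrays, with AT from SAT at 5.721 to 7.516 and all other arrays at or below 5.172.

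Ppard (Entrez Gene 19015), the broadly expressed receptor, stayed within a narrow range. It read 7.39, 7.47 and 7.53 in AP from SAT and 7.27, 7.25 and 7.25 in AP from VAT. In AT it read 7.17, 7.12 and 7.37 in SAT and 7.62, 7.49 and 7.68 in VAT. The preparations ranked in opposite order in the depots, and AP and AT did not overlap in either. In SAT the difference was 0.24 (SE 0.10, 95% interval 0.029 to 0.46), which did not pass (adjusted p = 0.0812), and in VAT it was -0.34 (SE 0.10, adjusted p = 0.0163). Without replicate 3 of AT from SAT the difference in SAT passed (adjusted p = 0.0356), while the call in VAT did not hold without replicate 3 of AT from VAT (adjusted p = 0.0561), under quantile normalization (0.134) or under cyclic loess (0.0753), and the difference was 0.43 on the housekeeping scale.

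Both RXR partners were called lower in AP in VAT, and only Rxrg was in SAT. Rxra (Entrez Gene 20181), the common partner, read 8.07, 8.04 and 8.08 in AP from SAT against 7.91, 7.97 and 8.23 in AT from SAT. In VAT it read 8.07, 7.53 and 8.00 in AP against 8.37, 8.61 and 8.53 in AT. The SAT groups overlapped and the VAT groups did not. The difference was 0.027 (SE 0.14, 95% interval -0.27 to 0.32) in SAT and -0.64 (SE 0.14, adjusted p = 0.00199) in VAT. On the housekeeping scale Rxra was called higher in SAT, at 0.77 (adjusted p = 0.000619), and was at 0.135 in VAT. The medians of all genes on that scale were 0.77 in SAT and 0.805 in VAT, so in SAT Rxra stood at the typical gene. Rxrg (Entrez Gene 20183), a partner restricted to fewer tissues, lay at 4.32 to 5.19 in AP and 5.50 to 5.90 in AT, without overlap. Its difference was -0.68 (SE 0.15) in SAT and -0.86 (SE 0.15) in VAT (adjusted p = 0.00257 and 0.000391), and these calls were lost on the housekeeping scale (0.063 and -0.088).

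In SAT, 2 of the 9 genes were called higher in AP and 5 lower (7 called, against 32.4% of all genes, 16.1% higher and 16.3% lower). In VAT 2 were higher and 6 lower (8 called, against 32.6% of all genes, 15.8% higher and 16.8% lower), and over both depots 2 were higher and 6 lower (42.5% of all genes called, 22% higher and 20.5% lower). Among the last 6 was Rxra at -0.31 (SE 0.097, adjusted p = 0.0193), which was not called without replicate 3 of AT from SAT (0.0516). The replicates of AP and AT did not overlap for 8 of the 9 in SAT and all 9 in VAT, against 44.6% and 40.9% of all genes. The median absolute log2 difference of the 9 was 0.99 in SAT and 0.86 in VAT, against 0.20 and 0.22 over all genes. Scaling mattered for the smaller differences. When arrays were aligned on the median of 10 housekeeping genes, the typical gene went from a difference of 0.035 to one of 0.79 over both depots (medians of all genes). On that scale Cebpb, Cebpd, Ppard and Rxra were called higher and Cebpa and Pparg lower, and Cebpg, Ppara and Rxrg were not called. Of all 22180 genes 20257 were called there, 19246 of them higher. Ppard (0.71) and Rxra (0.45) lay below the median of all genes. In SAT the scale called 4 higher (Cebpb, Cebpd, Ppard and Rxra) and 3 lower (Cebpa, Pparg and Ppara), with 19033 of all genes called, 18122 higher. In VAT it called 3 higher (Cebpb, Cebpd and Ppara) and 2 lower (Cebpa and Pparg), with 19093 of all genes called, 18292 higher. Of the 10 housekeeping genes 9 were themselves called between AP and AT before scaling, 4 higher and 5 lower, from Sdha at -1.64 and Hprt at -1.45 to Rplp0 at 0.60. Cebpa, Cebpd and Pparg kept their direction and their call in both depots under every alternative run. Cebpb did so too except where a call also required an absolute difference of at least 1, which its 0.99 in SAT missed.

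**Figure D3:**
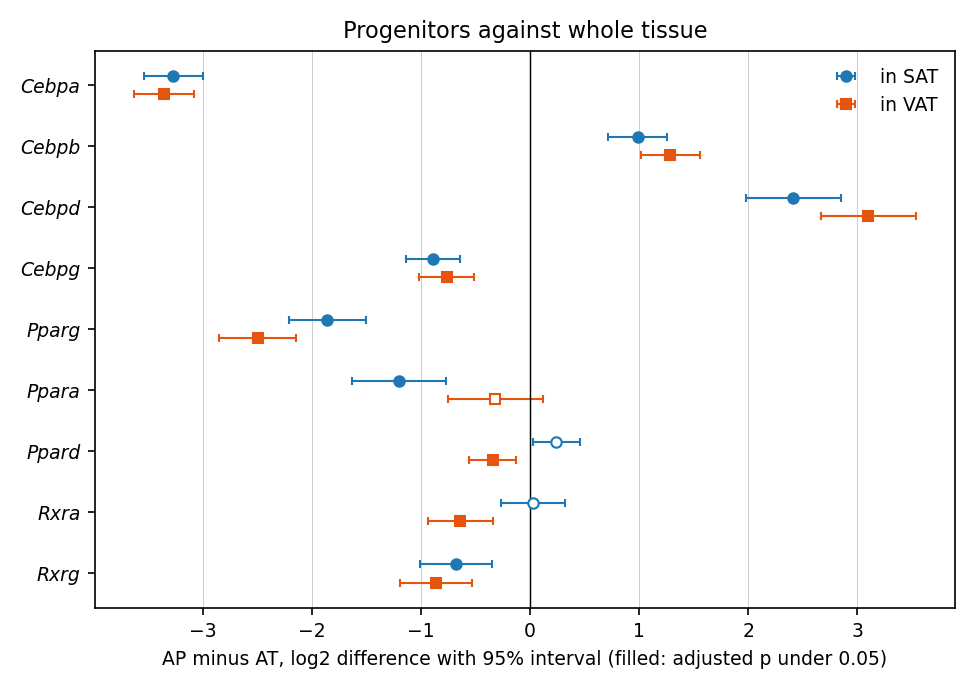
Log2 difference of AP minus AT for each gene in SAT (circles) and VAT (squares), with 95% intervals of the limma fit over 12 arrays. Filled symbols passed an adjusted p under 0.05; Cebpa and Pparg lie left of 0 and Cebpb and Cebpd right of 0 in both depots.

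Differences between members within an array do not depend on a shift of the whole array. Only their change between groups is read, as the levels and signs depend on the probe sets. For Cebpd minus Cebpa, this difference ran from 0.94 to 1.66 in the 6 AP arrays and from -5.05 to -3.88 in the 6 AT arrays. The early factor thus gained 6.07 log2 units on the late one from AT to AP, 5.68 in SAT and 6.45 in VAT. For Cebpb minus Cebpa the shift was 4.45, and for Ppard minus Pparg it was 2.13. The AP and AT ranges lay apart in each of these 3 pairs, with p = 0.005 in the exact permutation test, 2-sided with labels exchanged within depots, the smallest p it can give (0.00667 adjusted over the 4 pairs). For the 2 pairs with Cebpa this p was fixed in advance. Their genes separated AP from AT in opposite directions, so the test adds nothing to the values of each gene. Rxrg minus Rxra shifted by -0.46 with overlapping ranges (exact permutation p = 0.06, also 0.06 adjusted). Its adjusted p was 0.005 when AP from VAT replicate 2 was left out and 0.04 when AT from SAT replicate 3 was left out, by the same exact test.

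**Figure D4:**
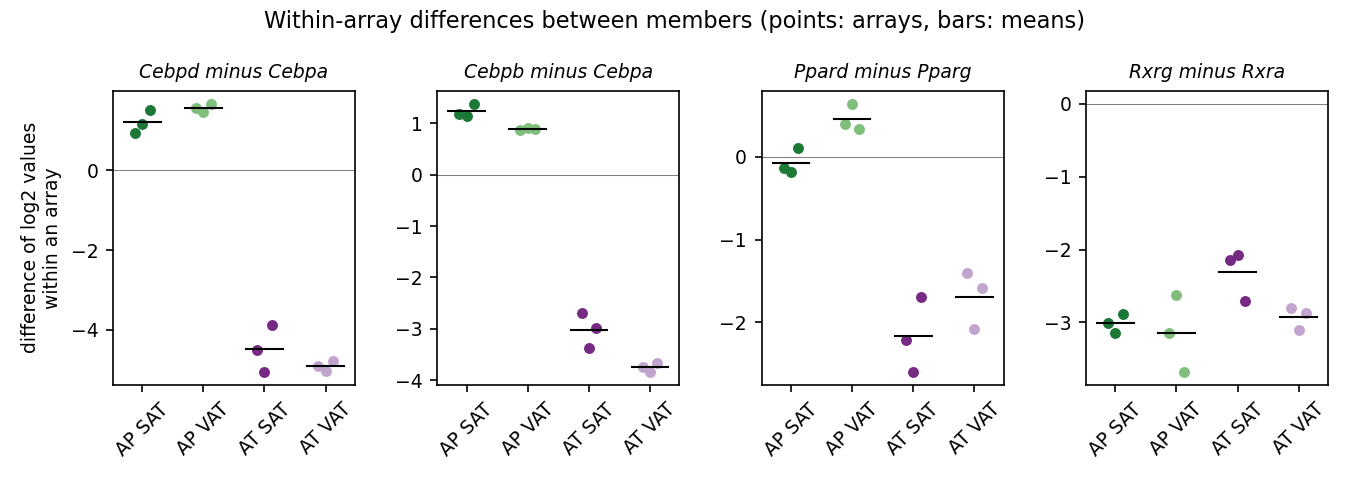
Difference of the log2 values of 2 genes on the same array, by group (points are arrays, bars are group means); each panel has its own vertical axis. The AP and AT points lie apart for Cebpd minus Cebpa, Cebpb minus Cebpa and Ppard minus Pparg, and overlap for Rxrg minus Rxra.

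The next comparison asks whether the regulators differ between depots. In AP, only Pparg was called among the 9 genes, lower in VAT than in SAT (5.64% of all genes were called, 3.03% higher and 2.6% lower). Its difference was -0.74 (SE 0.16), 1.67-fold (adjusted p = 0.013), and no array of one depot overlapped those of the other. The call did not hold without replicate 2 of AP from SAT (adjusted p = 0.0648) or replicate 2 of AP from VAT (0.0789), nor on the housekeeping scale (-0.59, adjusted p = 0.116). Cebpd was at 0.43 (95% interval -0.0052 to 0.87), Cebpb at -0.26 (-0.53 to 0.0079) and Rxrg at -0.34 (-0.66 to -0.0096), and none passed. For Cebpa the difference was 0.077 (-0.20 to 0.35). The arrays of the depots lay apart for Ppard too (-0.21), against 20.4% of all genes.

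In whole tissue, 3 of the 9 genes were called between depots (4.55% of all genes were called, 2.8% higher and 1.75% lower). Cebpb was lower in VAT by -0.56 (SE 0.13, adjusted p = 0.0172), Ppara lower by -0.80 (SE 0.20, adjusted p = 0.0331) and Ppard higher by 0.38 (SE 0.10, adjusted p = 0.0459). The arrays of the depots did not overlap for these 3, nor for Rxra, which was at 0.47 (SE 0.14, adjusted p = 0.0738); 18.1% of all genes showed no overlap. Ppara was at -0.57 (adjusted p = 0.157) without replicate 1 of AT from SAT, and was not called without replicate 2 of that group (0.0869) or any 1 array of AT from VAT (0.0649 to 0.116). Cebpb was not called without replicate 1 of AT from SAT (adjusted p = 0.0925), or replicate 1 (0.0741) or 2 (0.0522) of AT from VAT. The call of Ppard did not hold without any 1 AP array, without AT from SAT replicates 1 or 2, or without AT from VAT replicates 1 or 3, with adjusted p from 0.0539 to 0.161. It was lost too under quantile normalization (0.0800), cyclic loess (0.0861) and a fit to the compared groups only (0.156), the last of which also lost Ppara (0.0969). On the housekeeping scale Ppara remained called, and Cebpb (adjusted p = 0.444) and Ppard (0.324) were not. Rxra was called without replicate 2 of AP from VAT (adjusted p = 0.0255) or replicate 3 of AT from SAT (0.0434).

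**Figure D5:**
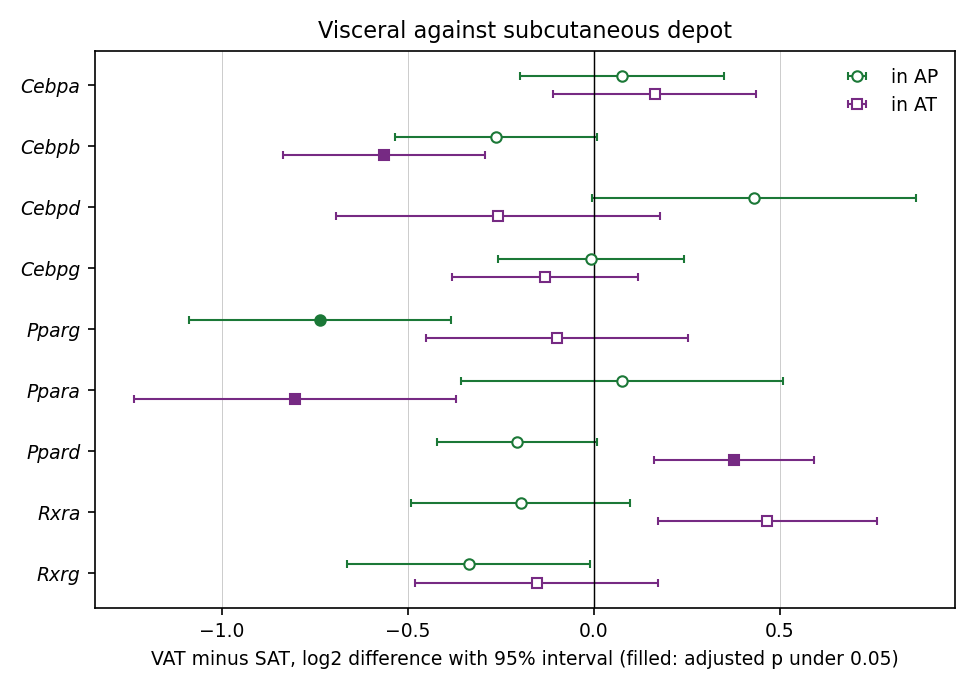
Log2 difference of VAT minus SAT for each gene in AP (circles) and in AT (squares), with 95% intervals of the limma fit. Filled symbols passed an adjusted p under 0.05: Pparg in AP, and Cebpb, Ppara and Ppard in AT.

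The interaction, which subtracts the depot difference of AT from that of AP, tests whether the depots differ to another extent in AP than in AT. Of the 9 genes, 1 was called, Ppard at -0.58 (SE 0.14, adjusted p = 0.0468; 2.15% of all genes were called, 0.987% higher and 1.16% lower). Among the 12 fits that each left out 1 array, this call held only in those that dropped AT from SAT replicate 3 or AT from VAT replicate 2, and the adjusted p ranged from 0.0227 to 0.118. It was lost under quantile normalization (0.123), cyclic loess (0.127) and the housekeeping scale (0.996). The largest values otherwise were those of Ppara (0.88, SE 0.29), Cebpd (0.69, SE 0.29), Rxra (-0.66, SE 0.19) and Pparg (-0.64, SE 0.23), with adjusted p of 0.157, 0.301, 0.107 and 0.218. Without replicate 3 of AT from SAT, Ppara was called too, at 1.14 (adjusted p = 0.0151).

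Genes known as targets of these factors were counted in fixed lists. Over both depots 22% of all genes were called higher in AP and 20.5% lower. Between depots 3.03% of all genes were higher in VAT and 2.6% lower within AP, and 2.8% and 1.75% within AT. Of 26 measured PPARG target genes of the adipocyte, 23 were lower in AP over both depots and 1 was higher, with a median log2 difference of -3.09 against 0.035 for all genes. The lipid droplet protein Cidec (-6.21, SE 0.11), the hormone resistin (Retn, -6.10, SE 0.12) and the galectin Lgals12 (-5.82, SE 0.078) fell most, and the carbonyl reductase Cbr3 rose by 0.80 (SE 0.14). Of these 26 genes 10 (38.5%) are also among the 11 adipocyte markers, 90.9% of that list. Between depots within AP, where Pparg was called lower in VAT, 2 of the 26 were lower and 1 higher, with a median of 0.0017. These were the lipid droplet protein Plin4 (-0.79, SE 0.16), lipoprotein lipase (Lpl, -0.39, SE 0.092) and Retn (0.71, SE 0.17).

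Of 20 PPARA and PPARD target genes of fatty acid oxidation, 15 were lower and 4 higher in AP over both depots, with a median of -0.96. In VAT alone the median was -0.57. On the housekeeping scale the medians were -0.21 over both depots and 0.20 in VAT, against 0.79 and 0.805 for all genes. Acadm, a dehydrogenase of fatty acid oxidation, fell by 2.74 (SE 0.11), the mitochondrial carrier Ucp3 by 2.31 (SE 0.16) and the peroxisomal enzyme Ehhadh by 2.26 (SE 0.13). Cpt1a, which admits fatty acids to mitochondria, rose by 0.65 (SE 0.10), and Acot1, a thioesterase, by 0.52 (SE 0.13). Cyp4a14 was called higher by 0.32 (SE 0.094), with every group mean below 4.09. In whole tissue, where Ppara was lower in VAT, limma called 8 of the 20 lower in VAT and 0 higher (11 and 1 at an unadjusted p under 0.05), with a median of -0.38. In the same comparison it called 5 of 12 brown and beige markers lower and 0 higher. At an unadjusted p under 0.05 these counts were 10 and 0, and the list median was -1.34. Within AP 1 of the 20 oxidation targets differed between depots, Vnn1, at 0.95 (SE 0.17). Its mean was 3.97 in AP from SAT, below 4.09, and 4.92 in AP from VAT.

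Of 18 acute phase genes known as C/EBP-beta and C/EBP-delta targets, 10 were higher in AP and 3 lower, with a median of 1.66. The prostaglandin synthase Ptgs2 rose by 5.29 (SE 0.22), the cytokine Il6 by 5.20 (SE 0.14, from near background in AT) and the hyaluronan-binding Tnfaip6 by 4.68 (SE 0.13). The liver-type acute phase proteins Orm1 (-5.13, SE 0.12), haptoglobin (Hp, -3.88, SE 0.14) and Orm2 (-0.69, SE 0.11) were lower. Orm2 had group means of 3.45 and 3.43 in AP and 4.02 in AT from SAT, all below 4.09, and its difference was 0.063 on the housekeeping scale. Within AP, 5 of the 18 were lower in VAT and 1 higher, with Il6 at -1.33 (SE 0.20), Ptgs2 at -1.42 (SE 0.31), the pentraxin Ptx3 at -1.69 (SE 0.38) and Hp at 3.75 (SE 0.20). Replicate 3 of AP from SAT stood apart for this list, with a mean of 8.922 against 7.838 and 7.887 on the other arrays of its group. Without it, an alternative added after seeing the data, 4 of the 18 were lower and 3 higher, with Ptx3 at -0.997 (SE 0.16) and the lipocalin Lcn2 called higher at 2.57 (SE 0.34). Over both depots 10 were then higher and 5 lower in AP. Dissociation stress genes, like Cebpb and Cebpd, were higher in AP than in AT. All 18 immediate early and stress genes were higher in AP in both depots, with list means from 10.21 to 10.41 over the AP arrays and from 5.96 to 6.34 over the AT arrays. Their part in the rise of Cebpb and Cebpd was not tested.

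Upstream of the 9 genes, inducers split and restrainers rose. Of 21 inducers of adipogenesis, 11 were higher in AP and 8 lower, against 22% and 20.5% of all genes. Their median was 0.23, and 16 were higher and 2 lower on the housekeeping scale. That scale called 19246 of all 22180 genes higher. The early factors Klf4 (3.31, SE 0.12) and Egr2 (1.58, SE 0.11) and the progenitor factor Ebf2 (1.13, SE 0.10) were higher. The insulin receptor Insr (-1.23, SE 0.10), the lipogenic factor Srebf1 (-1.22, SE 0.081) and the late factor Klf15 (-0.89, SE 0.10) were lower. Of 20 restrainers, limma called 17 higher and 0 lower, against the same 22% and 20.5% of all genes. The counts were the same at an unadjusted p under 0.05, and the median was 0.87. The restrainers were led by the helix-loop-helix inhibitor Id3 (3.13, SE 0.12), Klf2 (2.43, SE 0.081) and Sox9 (1.92, SE 0.092). Within AP, 3.03% of all genes were higher in VAT and 2.6% lower. By the same limma fit, 3 of the 21 inducers and 2 of the 20 restrainers were higher in VAT within AP. Among the inducers these were Bmp4 (1.08, SE 0.17), Klf15 (0.58, SE 0.14) and Klf9 (0.45, SE 0.11), and among the restrainers Sox9 (1.74, SE 0.13) and Gata2 (0.52, SE 0.13). The ligand Wnt10b was lower (-1.34, SE 0.14).

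The partners and coregulators that C/EBPs and PPARs work with went both ways. Of 25 measured, 8 were higher in AP and 6 lower, against 22% and 20.5% of all genes, with a median of 0.053. On the housekeeping scale 20 were higher and 2 lower, and 19246 of all 22180 genes were called higher. The methyltransferase Carm1 (0.83, SE 0.077), the C/EBP-homologous Ddit3 (0.82, SE 0.10) and the retinoic acid receptor Rarb (0.66, SE 0.10) were higher. The PPAR coactivator Ppargc1a (-1.97, SE 0.23), the thyroid hormone receptor Thrb (-1.26, SE 0.10) and Ncoa4 (-0.93, SE 0.094) were lower. Within AP, Ncoa4 was higher in VAT (0.61, SE 0.13) and the retinoic acid receptor Rarg lower (-0.72, SE 0.19). The RXR family member Rxrb was at 0.050 (adjusted p = 0.634).

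For each regulator, the genes with the most similar profile were found by the root mean square difference over the 12 arrays, each gene centred on its own mean. For Cebpa these were the desaturase Scd1 (0.16), the kinase Hipk2 (0.18) and the fatty acid transporter Cd36 (0.18), against an SD of Cebpa over the arrays of 1.74. For Cebpd they were Cygb (0.20), Gdf10 (0.25) and the phosphatase Dusp1 (0.26), the last a member of the stress list. For Cebpb they were Got1 (0.15), Myd88 (0.17) and Pcdh1 (0.18), and for Cebpg Hagh (0.085), Fbxo8 (0.087) and Selenot (0.091). The profile of Pparg was nearest to those of the mitochondrial chaperone Hspd1 (0.20), the mitochondrial peroxiredoxin Prdx3 (0.23) and the kinase Mknk2 (0.23). That of Ppara was nearest to P2rx5 (0.18), Akap1 (0.19) and Gnal (0.20). For Ppard the nearest were Cdk16 (0.058), Atxn10 (0.093) and Cstdc3 (0.095), for Rxra Ftsj3 (0.11), Lta4h (0.12) and Efcab2 (0.13), and for Rxrg Kbtbd11 (0.15), Dpy30 (0.16) and Lrrc25 (0.17). The distance is in log2 units and is small for genes that vary little, so it ranks neighbours only within 1 regulator.

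Other cell types that the preparations could hold were read from marker lists. All 8 mesothelial markers were higher in VAT than in SAT within AP (median 3.55), with list means of 8.22 to 8.73 in VAT and 5.06 to 5.34 in SAT. Of 10 progenitor markers, 3 were lower in VAT within AP, Pi16 (-1.61, SE 0.30), Dpp4 (-1.35, SE 0.28) and Thy1 (-0.997, SE 0.16), with list means of 8.911 to 9.106 in VAT and 9.411 to 9.497 in SAT. Of 8 endothelial markers 2 were higher, the receptor Kdr at 1.37 (SE 0.16) and Emcn at 0.81 (SE 0.20). The receptor Tek was lower at -1.13 (SE 0.24). The list median was -0.055, and the list means overlapped. Of 7 pericyte and smooth muscle markers 2 were higher in VAT within AP and 0 lower. These were Des (0.71, SE 0.11) and Myh11 (0.49, SE 0.10), with list means of 9.40 to 9.56 in VAT and 9.14 to 9.27 in SAT. The part of the cells of all these markers in the lower Pparg of AP from VAT was not tested. Over both depots, 6 of 7 pericyte and smooth muscle markers were higher in AP and 1 lower. Of 7 lymphocyte markers 5 were lower, or 2 higher and 1 lower on the housekeeping scale, where most genes were called higher. Mammary, skeletal muscle and epididymal markers had list means of at most 5.194 on any array. Of 6 mammary markers, 1 was higher in AP, and of 7 muscle markers 1 was higher and 1 lower. Of 5 epididymal markers limma called 0, with 1 lower at an unadjusted p under 0.05.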

How the data were processed

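Total RNA from 12 samples was hybridised to Affymetrix arrays. The deposited values are log2 intensities, which the authors made by RMA in Affymetrix Expression Console 1.3.0.187, per the submitters' processing notes. RMA corrects background, equalises the arrays and summarises probes, so shifts of a whole array are removed. Of 41345 probe sets, 23521 had 1 gene symbol, 1814 several and 16010 none. The brightest probe set stood for a gene, which left 22180 genes. In limma 3.58.1 (R 4.3.3), 1 mean per group was fitted to all 12 arrays, and 6 contrasts were tested with empirical Bayes and Benjamini-Hochberg adjustment over all genes. The threshold for a call was an adjusted p under 0.05. Within-array pairs had exact permutation tests. On simulated data for VAT against SAT in AP (22180 genes), the fit recovered 21 of 50 genes changed by 0.5 log2 units and 47 of 50 changed by 1. From each list the text names at most 3 called genes that rose most and 3 that fell most, over both depots and between depots in AP; any further name was picked with its values known. The 9 genes and the lists were chosen with earlier results of these data known. Alternatives covered normalization, probe set choice, filters, weights, blocks and left-out arrays. The number of arrays limits precision. Same-numbered samples had residual correlations of -0.2796 to 0.1594, and the main fit did not take numbers as pairs. With 3 arrays a group these correlations cannot show whether such samples share animals.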

Additional observations from a re-analysis of the deposited data

Results flagged for a closer look

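The depot difference of Ppard, the broadly expressed receptor, differed between AP and AT by a test of the difference itself. VAT minus SAT was -0.21 in AP and 0.38 in AT, an interaction of -0.58 log2 units (limma, adjusted p = 0.0468). The call was lost in 10 of the 12 fits that each left out 1 array (adjusted p from 0.0227 to 0.118 over the 12). It was also lost under quantile normalization (0.123), cyclic loess (0.127), the replicate block as a fixed (0.0613) or random effect (0.0637) and scaling to housekeeping genes (0.996).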

How the results depend on the processing

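The limits are 3 arrays a group, animals that the labels do not name, and array-wide shifts that RMA removes. The numbers of genes called among the 9 changed as follows. At an absolute log2 difference of at least 1 they were 4 in SAT, 4 in VAT and 4 over both depots for AP against AT, and 0 for each depot comparison and the interaction. Scaled to housekeeping genes they were 5 in VAT, 0 for depots in AP, 1 for depots in AT and 0 for the interaction. On that scale 19093, 893, 663 and 265 of all 22180 genes were called in these comparisons. With only the compared groups fitted the count was 1 for depots in AT. The interaction count was 0 under quantile normalization, cyclic loess and the replicate block as a fixed or a random effect. The labels do not tell whether same-numbered samples share animals. With the replicate number as a fixed or random block, Ppard had limma adjusted p values of 0.0575 and 0.0621 for depots in AT. For the interaction they were 0.0613 and 0.0637. Leaving out each array in turn gave 7 to 8 in SAT, 7 to 8 in VAT, 7 to 8 over both depots, 0 to 1 for depots in AP, 0 to 4 for depots in AT and 0 to 2 for the interaction. Rxrg minus Rxra was -0.56 (exact permutation, adjusted p = 0.01) under quantile normalization and -0.59 to -0.33 with an array left out. The other pairs ranged from 5.92 to 6.22 (Cebpd minus Cebpa), 4.36 to 4.53 (Cebpb minus Cebpa) and 2.02 to 2.25 (Ppard minus Pparg), and exchange within replicate pairs as the block gave them an exact adjusted p of 0.0417. For the 2 pairs with Cebpa that p too was fixed by the separation of their genes.

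Some values changed sign. On the housekeeping scale AP minus AT was 0.0083 for Cebpg, 0.455 for Ppara (adjusted p = 0.0389), 0.43 for Ppard and 0.135 for Rxra in VAT, 0.063 for Rxrg in SAT, and 0.71 for Ppard and 0.45 for Rxra over both depots. On that scale VAT minus SAT was 0.14 for Cebpg in AP and 0.017 for Pparg in AT. Quantile normalization gave 0.047 for Cebpg between depots in AP and 0.025 for Ppard over both depots. Cyclic loess gave 0.061 for Cebpg between depots in AP, -0.0051 for Rxra in SAT and 0.052 for the Cebpa interaction. With an array left out, values spanned 0 for depots in AP for Cebpa (-0.0017 to 0.19), Cebpg (-0.057 to 0.023) and Ppara (-0.10 to 0.185), and for depots in AT for Cebpd (-0.425 to 0.005) and Pparg (-0.265 to 0.065). The same held for Rxra in SAT (-0.037 to 0.12) and the interactions of Cebpa (-0.205 to 0.025) and Rxrg (-0.29 to 0.013). Beyond the housekeeping scale, whose construction shifts all genes, the cause was not tested. Of 576 other values for single genes, 538 kept direction and side of the threshold, as did 598 of 648 with an array left out.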
